A study of Mus musculus with 6 samples.

Results

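The core genes of the circadian clock were examined in cultured mouse mammary epithelial cells with and without Jarid1b. The 10 members were Per1, Per2, Per3, Cry1, Cry2, Arntl (also called Bmal1), Clock, Nr1d1, Nr1d2 and Dbp, taken as every probe whose platform symbol is one of these names. They are 10 of 19057 named genes and had 19 of the 45281 probes on the array. The set was chosen by the KO and WT intensities of these same arrays, Per2 above all, so the differences between the genotypes are given below as a description, and no test of them is read as support.

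The circadian clock is a feedback loop of transcription that runs in almost every mammalian cell. CLOCK and ARNTL (BMAL1) bind E-boxes as a pair and switch on the period (Per) and cryptochrome (Cry) genes, whose proteins return to the nucleus and block CLOCK and ARNTL. A second loop runs through NR1D1 and NR1D2 (REV-ERB alpha and beta), nuclear receptors that repress Arntl and are themselves E-box genes, and DBP carries the rhythm to output genes through D-boxes. In mouse tissues Arntl transcripts peak at the opposite phase to Dbp, Nr1d1 and the Per genes, and the mammary gland has such a rhythm.

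The series compares Jarid1b+/+ (WT) with Jarid1b-/- (KO) mammary epithelial cells, the latter lacking JARID1B (KDM5B), a demethylase of histone H3 lysine 4. There were 3 WT and 3 KO cultures, harvested at early passage and 80% confluence as pairs, lettered A, B and C, and each gave 1 array. The labels name no strain, no age of the mice and no cell type that drives the deletion. The hour of harvest and any synchronisation of the cultures are likewise not given in the labels. They do not say whether the cultures of a genotype came from different mice, and standard errors and p-values therefore cover the spread among the 6 cultures alone, part of which may be technical.

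Median raw intensity was 95.3 to 100.7 per array and 17033 to 18686 probes per array had a detection p under 0.05, a detection p being the share of negative control beads as bright as the probe. The 17920 probes detected on at least 3 of the 6 arrays were tested. Kdm5b, the targeted gene, had a log2 intensity of 6.85 ± 0.24 in WT against 4.39 ± 0.05 for KO at its brightest probe (SD, n = 3 each) and was not detected on any KO array (limma adjusted p = 0.0155, and 0.0125 to 0.217 over the alternatives to the processing). Its call was lost in 10 of the 15 alternatives, with KO lower in each. Krt8, Krt18, Cdh1, Krt5, Krt14 and Trp63, markers of luminal and basal mammary epithelium, were detected on all 6 arrays, while the luminal marker Epcam was not detected on any. The 2 arrays of pair C shared more of their deviation from the genotype means (correlation 0.720 over tested probes) than those of pair A (0.352) or pair B (0.490). The proliferation genes Top2a and Mcm3 differed between KO and WT by a median of 2.40 in pair A, against -0.17 for pair B and 0.61 for pair C (log2). In whole cultures, fewer cells of a type and less RNA per cell cannot be told apart.

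Of the 10 members, 9 had at least 1 tested probe and 13 of their 19 probes were tested. Cry1, one of the cryptochrome repressors, had 1 probe, which was not detected on any array (raw intensity 89.9 to 95.4), so the array gave no measure of it. Of the 5 other untested probes, 3 were not detected on any array (1 each of Per3, Cry2 and Clock), 1 of Nr1d2 was detected on 1 KO array only and 1 of Per2 on 2 WT arrays only. Per2 lies on chromosome 1, the chromosome of Kdm5b, and none of the other members does: Per1 and Nr1d1 lie on chromosome 11, Arntl and Dbp on 7, Cry2 on 2, Per3 on 4, Clock on 5, Cry1 on 10 and Nr1d2 on 14.

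Promoter windows are shown for the members whose start region holds the E-box or D-box elements of the loop and whose values are described below. RefSeq promoter sequences (GRCm38.p6, 250 bases before to 50 after a start) matched 9 of the 10 members in 13 windows, all but Per2. Each window was searched on both strands for the E-box CACGTG (in 7.15% of all 32851 windows), the E-box variant CACGTT (4.68%), the D-box forms TTATGTAA (0.938%) and TTATGCAA (0.743%) and the nuclear receptor element AGGTCA (16.3%). The E-box is its own reverse complement and none of these motifs holds another. Capitals mark the matches in the sequences, which are printed 5′ to 3′ on the gene's own strand.
Per1 (chr11:69098699-69098998, plus strand): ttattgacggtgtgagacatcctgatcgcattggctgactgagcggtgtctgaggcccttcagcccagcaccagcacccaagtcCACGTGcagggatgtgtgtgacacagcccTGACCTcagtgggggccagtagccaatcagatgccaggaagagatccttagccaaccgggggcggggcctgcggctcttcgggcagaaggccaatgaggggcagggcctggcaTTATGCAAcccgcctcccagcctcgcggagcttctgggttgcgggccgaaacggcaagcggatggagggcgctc
Cry2 (chr2:92434020-92434319, minus strand): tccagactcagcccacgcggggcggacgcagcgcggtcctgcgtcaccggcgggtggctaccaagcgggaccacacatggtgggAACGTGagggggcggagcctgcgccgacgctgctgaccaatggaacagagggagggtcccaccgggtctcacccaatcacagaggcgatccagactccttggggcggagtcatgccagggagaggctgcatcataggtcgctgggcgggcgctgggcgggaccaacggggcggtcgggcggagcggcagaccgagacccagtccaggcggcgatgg
Nr1d1 (chr11:98775328-98775627, minus strand): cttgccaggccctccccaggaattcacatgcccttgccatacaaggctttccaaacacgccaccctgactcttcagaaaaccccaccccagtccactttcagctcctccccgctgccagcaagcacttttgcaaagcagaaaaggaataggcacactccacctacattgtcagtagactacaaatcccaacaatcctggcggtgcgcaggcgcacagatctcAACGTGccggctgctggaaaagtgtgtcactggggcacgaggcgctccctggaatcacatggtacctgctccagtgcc
Per3 (chr4:151044616-151044915, minus strand): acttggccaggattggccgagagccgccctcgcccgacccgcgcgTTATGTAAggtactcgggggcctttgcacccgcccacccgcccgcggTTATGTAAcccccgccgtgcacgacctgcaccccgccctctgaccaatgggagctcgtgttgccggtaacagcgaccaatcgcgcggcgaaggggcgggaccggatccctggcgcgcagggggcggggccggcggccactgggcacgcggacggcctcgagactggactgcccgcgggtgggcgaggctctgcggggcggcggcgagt
The first of the Per1 windows holds an E-box, a receptor element and a D-box, and the Cry2 and Nr1d1 windows hold the E-box variant read on the opposite strand (AACGTG). The Per3 window holds 2 D-boxes. Cry1 had an E-box and the variant, the receptor element was found for Per1, Arntl, Clock and Nr1d2, and the Dbp window had none of the 5 motifs. A match describes these letters and is no evidence of binding.

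Per2, a period gene whose protein is the dose-sensitive repressor of the loop, read lower in every KO culture than in every WT culture. At its brightest probe (ILMN_2987862) the raw intensity was 1746, 1521 and 1106 in the WT cultures of pairs A, B and C and 533, 618 and 793 in the KO cultures. All 3 WT values lay above all 3 KO values, with the widest gap in pair A and the narrowest in pair C. Normalised log2 values were 10.35 ± 0.25 for WT against 9.22 ± 0.47 for KO (SD, n = 3 each), a difference of -1.13 (SE 0.27), which made WT 2.20-fold brighter. Within pairs A, B and C the log2 differences were -1.82, -1.0 and -0.58.

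A second Per2 probe (ILMN_2987863) gave nearly the same picture. Its raw intensity was 1124, 1040 and 805 in the WT cultures of pairs A, B and C, and 434, 406 and 561 in their KO partners. The log2 difference was -1.07 (SE 0.21), or -1.47, -1.11 and -0.63 taken pair by pair from A to C, so WT was again 2.10-fold brighter and the order of the pairs was kept. The third probe (ILMN_1258523) lay close to background, detected on 2 WT arrays and on 0 KO arrays (means 4.69 in WT and 4.39 in KO, log2). With the KO level taken as the higher of the probe's own signal and the dimmest detected signal on each array, WT was 1.10-fold brighter. The WT mean includes the undetected WT array of pair B, so this value is no minimum. Whether the DNA under the Per2 probes differs between the genotypes was not tested. The Per2 difference stayed between -1.41 and -0.86 (log2) in all 16 alternatives to the processing, omission of each array included. Those that alter only the detection filter, the probes kept, the trend and robust settings or the replicate block cannot change this value.

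**Figure D1:**
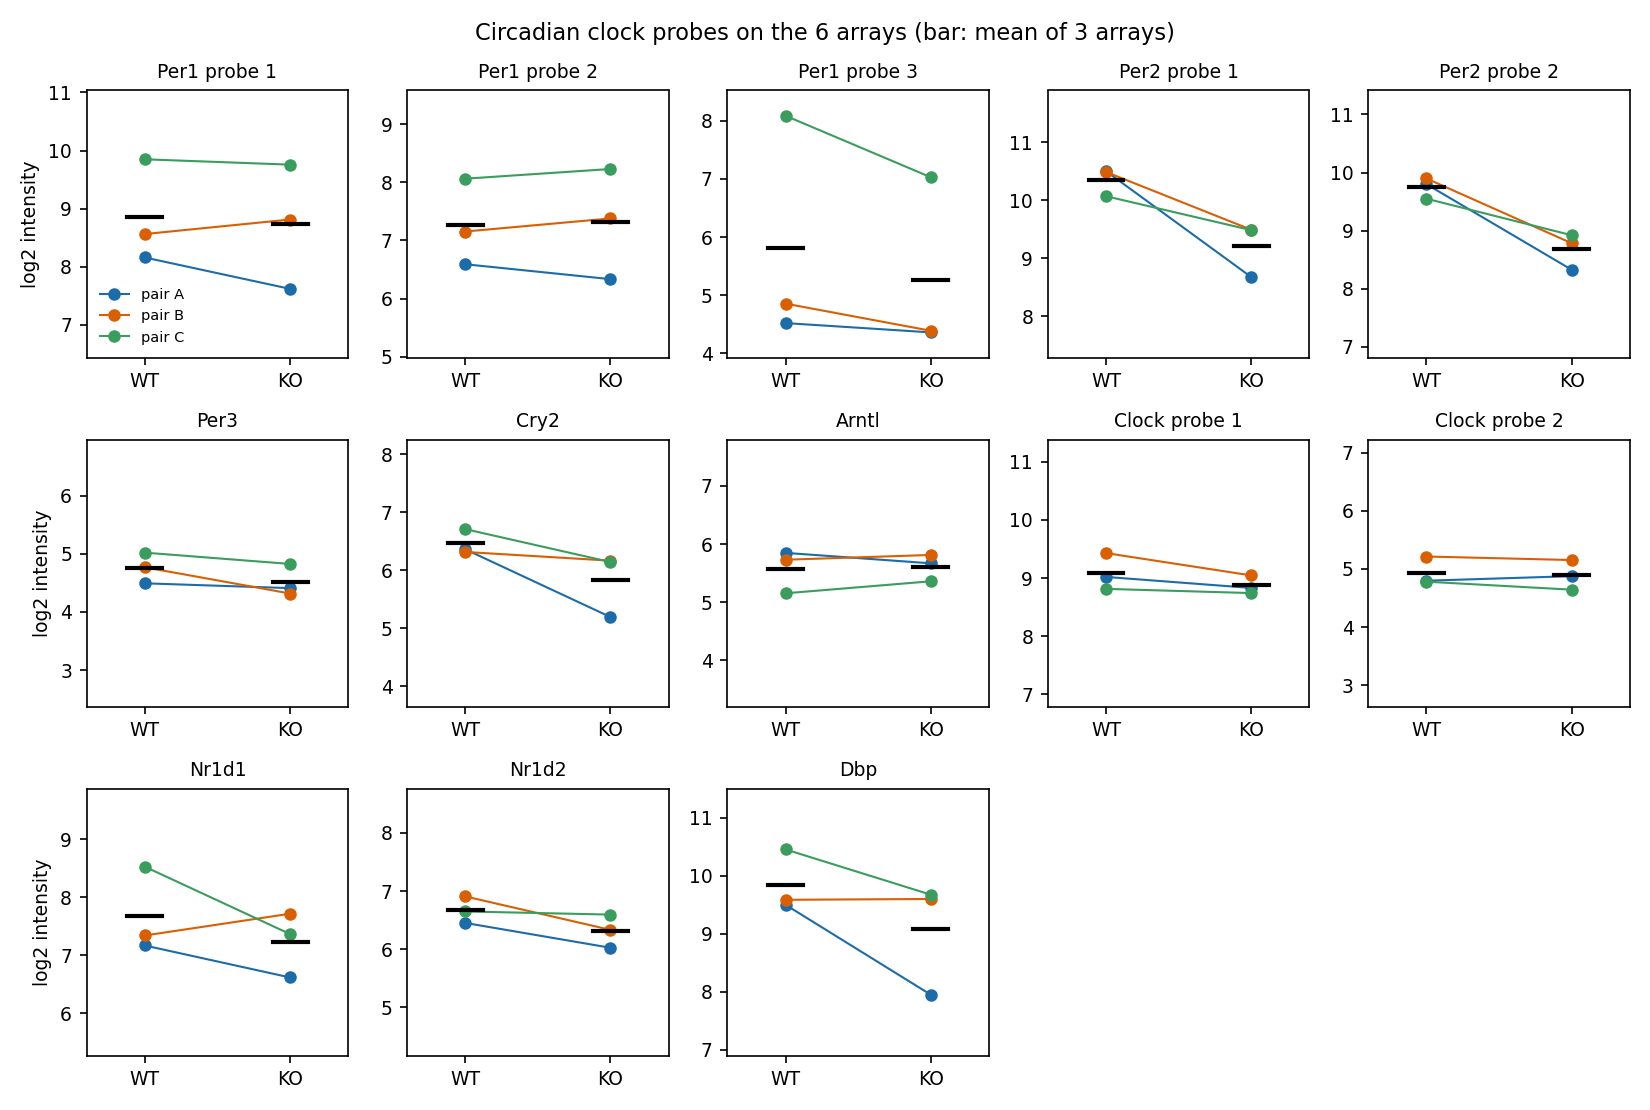
Log2 intensity of the 13 tested clock probes (vertical axis, each panel spanning the same range of log2 units) in WT and KO cultures. Points are arrays, lines join the cultures of a pair and black bars are means of 3 arrays. Both Per2 probes separate WT from KO without overlap, while the Per1 probes separate pair C from pairs A and B in either genotype.

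Per1, the period gene that responds fastest to serum, glucocorticoid and cAMP signals, did not share that pattern. Its brightest probe (ILMN_2813484) had raw intensities of 396, 464 and 962 in the WT cultures of pairs A, B and C and 298, 413 and 939 in KO. The genotypes overlapped, and in both of them pair C was the brightest. The log2 difference between KO and WT was -0.13 (SE 0.62), or -0.54, 0.25 and -0.09 taken pair by pair from A to C, and it ran from -0.64 without KO replicate C to 0.43 without KO replicate A. A second probe (ILMN_2813487) read 6.59, 7.15 and 8.06 in WT and 6.33, 7.38 and 8.23 in KO (log2 intensity), again brightest in pair C, and differed by 0.05 (SE 0.54). The third (ILMN_1249997), annotated to a cDNA clone and not to the RefSeq transcript, was detected on 3 of 6 arrays, with raw intensities of 357 and 218 in the WT and KO cultures of pair C and 95.9 to 109.7 elsewhere, so its difference of -0.56 (SE 1.09) is limited by background.

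Per3, the period gene held to be the least needed for the rhythm, was near background. Its brighter probe (ILMN_1257393) was detected on 2 WT arrays and 1 KO array, at raw intensities of 104.0, 108.1 and 112.7 in WT and 101.9, 94.4 and 107.4 in KO. The groups overlapped, with a log2 difference of -0.24 (SE 0.22).

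Cry2, the second cryptochrome, read lower in all KO cultures than in any WT culture. Raw intensity at its detected probe (ILMN_2665681) was 168, 160 and 189 in the WT cultures of pairs A, B and C and 119, 132 and 154 in KO. The lowest WT value lay only just above the highest KO value. On the log2 scale WT read 6.46 ± 0.22 against 5.83 ± 0.55 for KO (SD, n = 3 each), a difference of -0.63 (SE 0.30), and by pair it was -1.17, -0.15 and -0.57. The difference was -0.31 without KO replicate A, -0.28 with background left in and -0.26 from the authors' deposited values. A second Cry2 probe was not detected on any array.

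The activators of the loop showed small differences. Arntl, whose single probe (ILMN_2707510) was dim but detected on all arrays, had raw intensities of 141.7, 133.4 and 116.3 in WT and 134.8, 121.0 and 122.0 in KO. The groups overlapped and the log2 difference was 0.04 (SE 0.24), of no settled sign, being -0.04 with each array scaled to its median and -0.18 without WT replicate C. Clock read 676, 776 and 523 in WT and 586, 473 and 508 in KO at its brightest probe (ILMN_2610973, raw intensity). Here too the groups overlapped, at a log2 difference of -0.22 (SE 0.21), although the sign was negative in all 3 pairs. That value was -0.04 without WT replicate B and -0.35 without WT replicate C or with median scaling, and a second tested Clock probe differed by -0.04 (SE 0.21).

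Among the receptors that repress Arntl, Nr1d1 had no common direction over pairs. Its raw intensity was 236, 242 and 450 in the WT cultures of pairs A, B and C and 187, 231 and 253 in KO (ILMN_2749669). WT of pair C was by far the brightest and the other arrays overlapped. The log2 difference was -0.45 (SE 0.43), or -0.55, 0.38 and -1.16 in A, B and C, and only -0.02 without WT replicate C. In pair B the raw intensity was slightly lower in KO while the normalised value was higher, and the KO array of pair B had the lowest median raw intensity of the 6, at 95.3. Nr1d2 read 175, 199 and 185 in WT and 151, 138 and 182 in KO (raw intensity, ILMN_2798993), a log2 difference of -0.35 (SE 0.22) that was negative in each pair, at -0.43, -0.58 and -0.05, with groups that overlapped. It was -0.19 with background left in, -0.17 from the authors' deposited values and -0.21 without KO replicate A.

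Dbp, the output factor that binds D-boxes, varied widely between cultures. Raw intensity was 916, 857 and 1424 in the WT cultures of pairs A, B and C and 355, 659 and 893 in KO (ILMN_2616226). On the normalised scale the KO culture of pair A, at 7.95, was far below all others and WT of pair C, at 10.45, above them, while the remaining 4 arrays lay between 9.50 and 9.67. The log2 difference was -0.77 (SE 0.50), with -1.55, 0.01 and -0.78 within A, B and C. In pair B the raw intensity was lower in KO while the normalised values hardly differed. Omitting KO replicate A left -0.21, omitting WT replicate C left -0.47 and omitting KO replicate C gave -1.07.

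**Figure D2:**
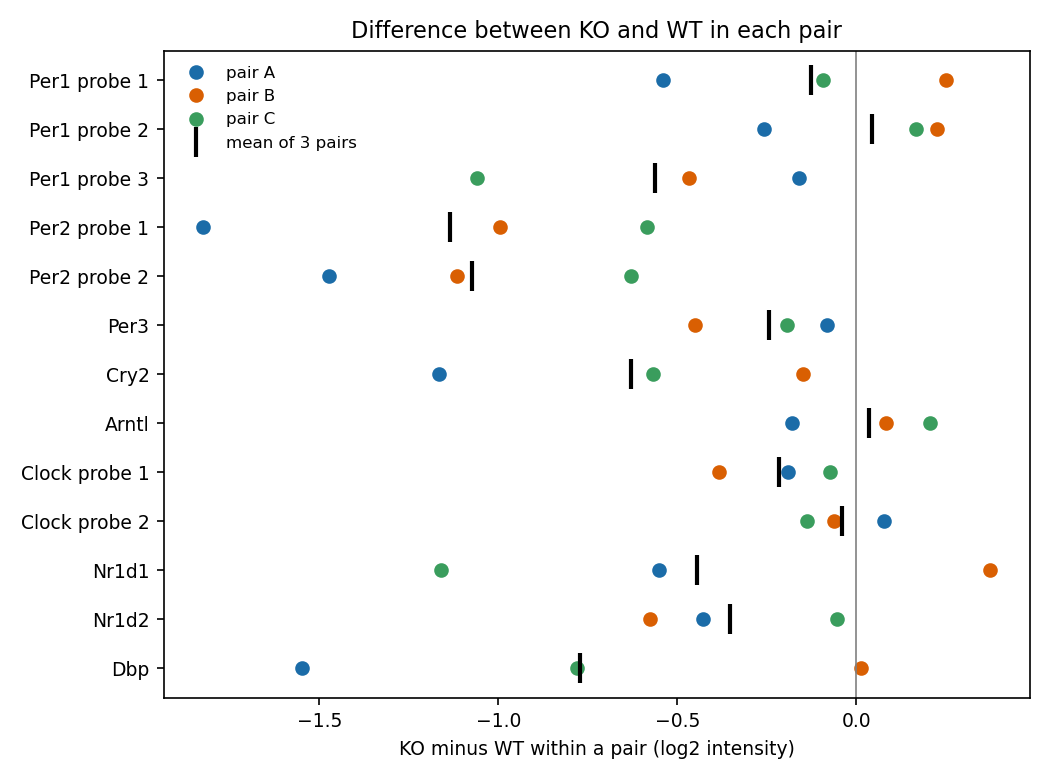
KO minus WT in log2 intensity (horizontal axis) within pairs A, B and C for each tested clock probe, with a black bar at the mean of the 3 pairs. The bright Per2 probes lie left of 0 in every pair, between -1.82 and -0.58. The pairs of Nr1d1 lie on both sides of 0, and Dbp in pair B lies at 0.01.

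Over the whole set, 11 of the 13 tested probes had a negative difference, where 54.0% of all 17920 tested probes did. The median difference was -0.35 against -0.02 for all tested probes (log2), and by pair it was -0.43, -0.15 and -0.19 in A, B and C. Omitting KO replicate A left -0.19 and omitting WT replicate C -0.18, and the median was -0.19 with background left in as well as from the authors' deposited values. KO lay below WT without overlap for 3 of the 13 probes, namely the 2 of Per2 and that of Cry2, where the share among all tested probes was 5.30%. The sign was negative in all 3 pairs for 7 of the 13, where the share was 19.2%. With limma, 0 of 13 had an adjusted p under 0.05 (0.0167% of all tested probes did), and 0 of 13 under a replicate block of pair letters (0.0223%). Because the members were chosen by this contrast, nothing is read from these counts. In all 17920 tested probes 26 had a more negative difference than the brightest Per2 probe.

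**Figure D3:**
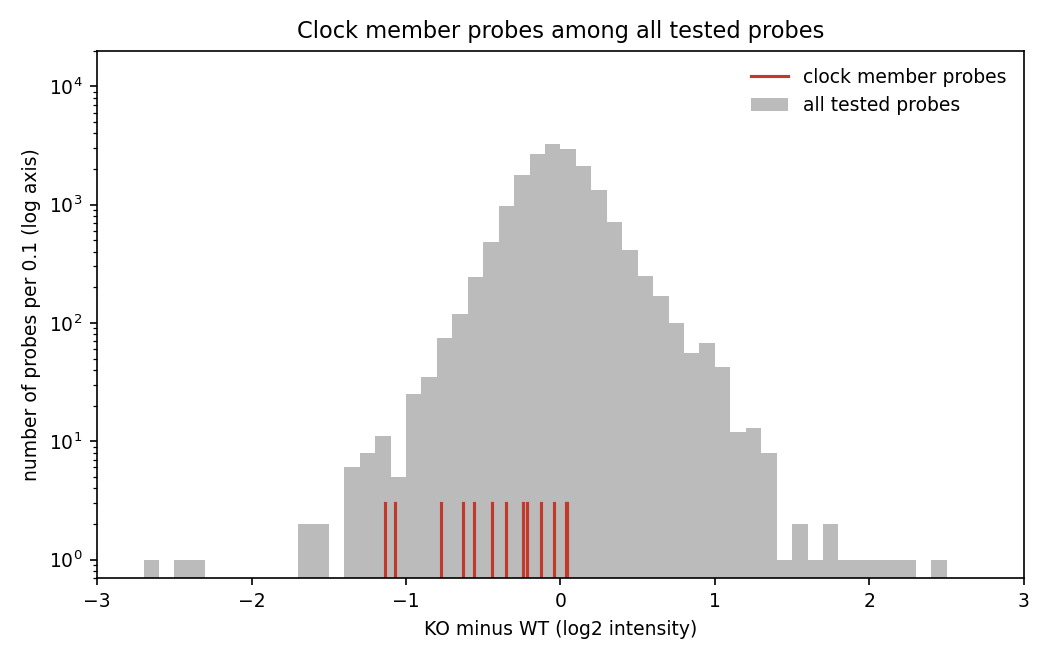
Number of tested probes per 0.1 log2 units of KO minus WT (grey bars, log axis, drawn from -3 to 3) with the 13 clock probes as red ticks. The Per2 ticks lie in the far left tail and the other members between -0.77 and 0.05.

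Levels of other cell markers were set beside the Per2 difference. The summed linear intensity of the luminal markers Krt8, Krt18, Epcam and Cdh1 ranged from 12840 to 15624 in WT and from 9819 to 13592 in KO, with median log2 differences of -0.58 in A, -0.07 in B and -0.11 in C. The basal markers Krt5, Krt14 and Trp63 summed to 7341 to 10025 in WT and 5064 to 10997 in KO, and Krt14 made up most of that sum. Their median log2 differences were 1.32 in A, -0.87 in B and -0.13 in C. Trp63 differed by 2.07, -0.51 and 0.10 in A, B and C. For the fibroblast markers Col1a1, Col1a2, Pdgfra and Pdgfrb the summed intensity was 650 to 793 in WT and 755 to 1723 in KO. Of the leukocyte markers Ptprc was not detected on any array, and the summed level of Ptprc, Csf1r and Cd3e was 84.3 to 150.7 in WT and 88.7 to 945 in KO, the highest in KO of pair C, where Cd3e differed by 3.25 (log2). The endothelial markers Pecam1 and Cdh5 summed to 758 to 796 in WT and 683 to 1748 in KO, and the proliferation genes Top2a and Mcm3 to 58.9 to 172 in WT and 77.9 to 373 in KO. The part of cell composition and proliferation in the Per2 difference was not tested.

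The pair letter gave a comparison that is independent of the difference between genotypes in this balanced design. The sample IDs in the labels, unlike the sample titles, follow another numbering in pair C than in A and B, and what sets the pairs apart is not stated there. The moderated F test of the pair letter beside genotype, run with limma over all 17920 tested probes after the pattern had been seen, called 6.0% of all tested probes and 3 of the 13 clock probes, all of them of Per1. On simulated data this test made more false calls than its threshold allows. Per1 was higher in pair C than in the mean of pairs A and B. At its brightest probe the difference was 1.52 (log2, SE 0.20) and at the second 1.28 (SE 0.18). The F test asks for any difference among the 3 pairs and not for that of pair C, and its adjusted p was 0.0196 for each. The third was detected on both arrays of pair C and on 1 of the other 4, so it entered the test through pair C and had to differ, and no size is given for it. In each genotype the pair C value of all 3 probes exceeded those of the other pairs, as it did for 25.6% of all tested probes. These calls were lost with background left in (adjusted p of 0.0529 to 0.0698), with the authors' deposited values (0.0589 to 0.0786) and with all probes kept (0.107 to 0.131). For the 2 brighter probes they were lost without WT replicate C (0.0838 and 0.0749) or KO replicate C (0.0932 and 0.0972), which leaves a single array of pair C. Over 12 alternatives the adjusted p of the brightest probe ran from 0.00912 to 0.131.

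The other members did not pass the test of the pair letter, although Dbp did without WT replicate A (adjusted p = 0.0343), and their values are given for comparison. Dbp read 0.90 (SE 0.30) higher in pair C, Nr1d1 0.73 (SE 0.30), Cry2 0.42 (SE 0.23) and Nr1d2 0.19 (SE 0.18), all as log2 differences from the mean of pairs A and B. The Per3 probe was detected on 2 WT arrays and 1 KO array, both arrays of pair C among them. It therefore entered the test through pair C, and no size is given for it. Arntl read lower in pair C, by -0.51 (SE 0.17), and so did Clock, by -0.30 (SE 0.16). In WT, Arntl was dimmest in pair C at 116.3 (raw intensity), where Nr1d1 and Dbp were brightest at 450 and 1424. In KO, Nr1d1 and Dbp were also brightest in pair C at 253 and 893, but Arntl was dimmest in B, at 121.0 against 122.0 in C. On the normalised log2 scale KO Arntl was lowest in C at 5.36, and KO Nr1d1 was highest in B, at 7.71 against 7.36 in C. Per2, the member with the largest difference between genotypes, differed by -0.01 (SE 0.26), an average of opposite signs in WT and KO. In WT it read 10.50, 10.49 and 10.07 in pairs A, B and C, lowest in C, and in KO 8.67, 9.49 and 9.48, lowest in A (log2 intensity). Adjusted p was 0.117 for Dbp (0.0343 to 0.437 over the alternatives), 0.193 for Nr1d1 and Arntl and 0.615 for Per2.

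**Figure D4:**
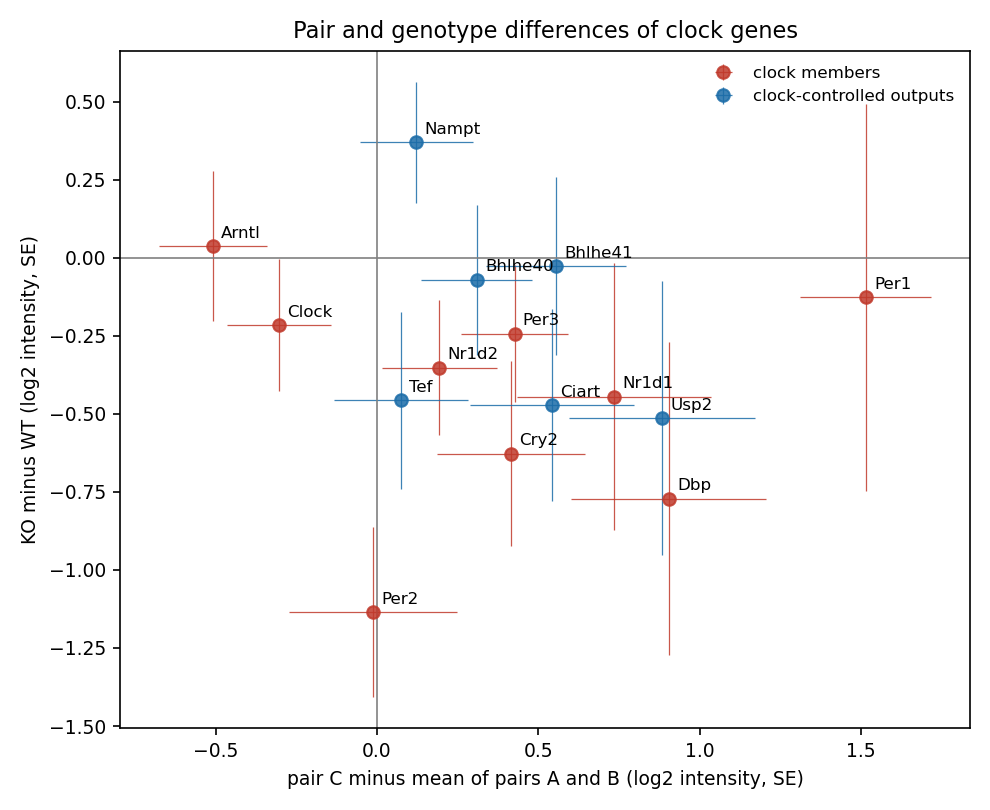
Log2 difference of pair C from the mean of pairs A and B (horizontal axis) against KO minus WT (vertical axis) for clock members (red) and clock-controlled outputs (blue), with standard errors from the limma fits. Per1 lies far to the right near the horizontal line and Per2 far below 0 near the vertical line, while Arntl and Clock lie to the left. Per3 is drawn although its probe entered the test through pair C.

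Other genes of the pathway were taken from 6 lists of 47 genes, of which 33 had a tested probe. At the brightest probe of each gene, 0 of 33 passed the threshold in limma (0.0192% of 10419 genes did), 0 with the replicate block (0.0288%), and 1 had an unadjusted p under 0.05 (3.24%). Their median log2 difference was -0.05, with 20 lower and 13 higher, against -0.01 over all 10419 genes with a tested probe. The pair letter was called for 2 of the 33, near the share of all genes (6.38%). They were named after their values were seen. Wdr5 is a subunit of histone H3 lysine 4 methyltransferases found in PER complexes, and Fkbp5 a glucocorticoid-induced co-chaperone. Wdr5 differed by -1.04 and Fkbp5 by -1.13 in pair C from the mean of A and B (log2). The limma F test of the pair letter, which asks for any difference among the pairs, gave adjusted p = 0.0330 and 0.0472.

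Among clock-controlled outputs 6 of 9 genes were tested, 5 with a negative difference and a median of -0.26. Usp2, a deubiquitinase gene with a strong rhythm in mouse tissues, differed by -0.51 (log2, SE 0.44), or -0.68, 0.28 and -1.15 taken pair by pair from A to C. Its other tested probes differed by -0.48 and -0.42. Ciart, a repressor of CLOCK and ARNTL, differed by -0.47 (SE 0.31), with -0.27, 0.01 and -1.16 by pair, and its other tested probes by -0.47 and -0.61. In both genes WT of pair C was the brightest array, at 9.52 for Usp2 and 7.09 for Ciart (log2 intensity), as it was for Nr1d1 and Dbp. Nfil3, the repressor that competes with DBP at D-boxes, had no probe under its name.

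In the loop partners 1 of 4 genes was tested. Rora, the activator that competes with NR1D1 at Arntl, differed by 0.10 (log2, SE 0.26), or -0.01, 0.50 and -0.21 taken pair by pair from A to C. Npas2, which can stand in for Clock, had 1 probe, and it was not tested.

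Kinases and ubiquitin ligases of the PER and CRY proteins had 6 of 11 genes tested, with a median of -0.14 and 4 lower. Gsk3b, a kinase of several clock proteins, differed by -0.34 (log2, SE 0.20) at its brightest probe and by -0.01 at the other. Csnk1e, the casein kinase that marks PER for breakdown, differed by -0.31 (SE 0.26).

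Partners of the PER complex had 5 of 6 genes tested, with a median of -0.25 and 3 lower. Ddx5, an RNA helicase found in PER complexes, was the only gene of the lists with an unadjusted p under 0.05 at its brightest probe. Over all 53 tested probes of the lists 5 had such a p, against 543 of all 17920 tested probes. Nothing is read from this count, as the lists were chosen with earlier results of these data known. Beside Ddx5 they were dimmer probes of Csnk1d, Ciart, Usp2 and Csnk2a1, whose other probes had smaller differences or larger errors. Ddx5 differed by -0.74 (log2, SE 0.25), with -0.59, -0.38 and -1.25 by pair, and its groups did not overlap. Tipin, a replication fork protein that binds TIMELESS, differed by 0.52 (SE 0.60), with 1.35, -0.26 and 0.47 by pair. Its other tested probe had the opposite sign, at -0.15 (SE 0.26), with -0.52, 0.41 and -0.33 by pair.

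Chromatin cofactors of the clock had 8 of 10 genes tested, with a median of -0.08 and 6 lower. Kdm5a, the paralogue of Kdm5b known as a coactivator of CLOCK and ARNTL in mouse cells, differed by -0.20 (log2, SE 0.18), or 0.16, -0.42 and -0.34 taken pair by pair from A to C. Ezh2, a histone H3 lysine 27 methyltransferase, differed by 0.28 (SE 0.30) and Sirt1, an NAD-dependent deacetylase, by -0.28 (SE 0.35). Glucocorticoid-responsive genes, listed because Per1 and Per2 respond to this hormone, had 7 of 7 genes tested, 5 of them positive, with a median of 0.03. Tsc22d3 differed by 0.36 (SE 0.32) and Cebpd by -0.22 (SE 0.26).

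The neighbourhood of Per2 was examined because Per2 and Kdm5b share a chromosome, on which their starts lie about 43 Mb apart. Within 1 Mb of Per2 in the GRCm38.p6 annotation, 14 other genes had a tested probe, 8 with a negative and 6 with a positive difference and a median of -0.10 (log2, or 0.05 over 27 genes within 2 Mb). None of the 14 passed over all probes (0.0167% of all tested probes did). Cops8, a subunit of the COP9 signalosome, had the largest difference. No WT array detected it, and with the reported normalisation KO exceeded WT at least 16.2-fold (means 4.35 in WT and 8.57 in KO, log2). Here the WT level is the higher of the probe's own signal and the dimmest detected signal on each array. The bound depends on the processing, as the log2 difference of 4.22 was 2.94 with an offset of 50. It was 2.26 with background left in and 2.13 from the authors' deposited values. The limma adjusted p was 0.0639, or 0.0125 under the replicate block of pair letters, and 0.000863 to 0.809 over all alternatives.

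The genes next to Per2 differed in both directions. Hes6, the nearest, differed by -0.15 (log2, SE 0.35), Ilkap by -0.06 (SE 0.16), Erfe, a regulator of iron metabolism, by 0.73 (SE 0.24) and Scly by 0.23 (SE 0.21). Ube2f differed by -0.54 (SE 0.26), Ramp1 by -0.16 (SE 0.43), Rbm44 by -0.14 (SE 0.21) and Lrrfip1 by -0.44 (SE 0.47). Rab17, a GTPase of polarised epithelial cells, differed by -0.80 (SE 0.26), or -1.25, -0.40 and -0.76 taken pair by pair from A to C, and Mlph, which links melanosomes to myosin, by -0.60 (SE 0.36). On the other side of Per2, Asb1 differed by 0.28 (SE 0.17), Twist2 by 0.48 (SE 0.76) and Hdac4 by 0.31 (SE 0.32). Several of these sizes depend on the background step. With background left in, Erfe differed by 0.26, Rab17 by -0.36, Mlph by -0.22 and Asb1 by 0.11, while the brighter Ube2f differed by -0.50.

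**Figure D5:**
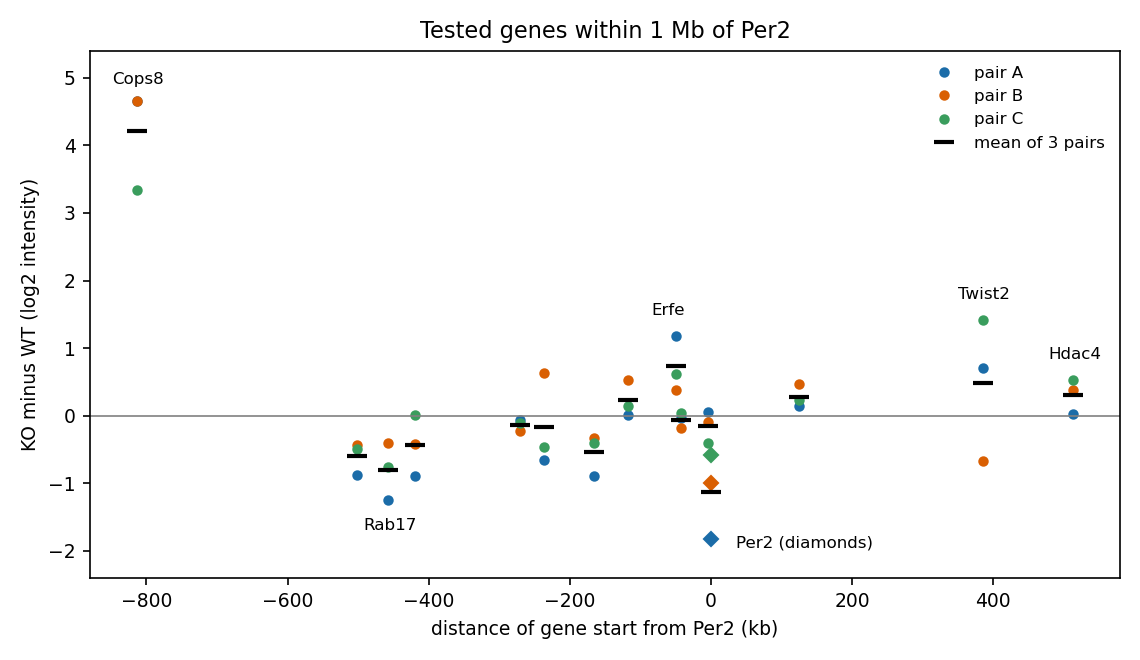
KO minus WT in log2 intensity (vertical axis) of the 14 tested genes within 1 Mb of Per2, by distance of the gene start from that of Per2 in kb (horizontal axis). Points are pairs A, B and C, bars are their means and diamonds show Per2. Cops8 stands far above 0 and Per2 below its nearest neighbours.

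The genes whose values over the 6 arrays were most like those of the brightest Per2 probe were found by the root mean square difference of log2 values, each centred on its own mean, among 12584 named probes detected on all arrays. The second Per2 probe lay at 0.12. The 5 closest genes were Dnaic1, a dynein chain of motile cilia, at 0.08, Garnl3 at 0.13, Rab17 at 0.21 (a probe other than the brightest one above), Plet1, a surface protein of epithelial progenitors, at 0.21 and Anxa9 at 0.22. All 5 read lower in KO in each pair, which the measure itself favours. Among the clock members detected on all arrays, which leaves out Per3 and Cry1, Cry2 was closest to Per2, at 0.37 and place 82. Per1, at 0.91, was the farthest of them. The measure covers 6 arrays of 3 pairs and shows likeness over these cultures alone.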

How the data were processed

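Each of the 6 cultures gave 1 Illumina bead array, and the deposited intensity of a probe is its unnormalised brightness, per the file headers. The deposited detection p-value refers to the negative control beads of its array, per the file headers. The authors' deposited log2 values of these arrays are quantile normalised, with a median of 6.75 per array, and keep the ranks of the raw intensities. The submitters' processing notes mention GenomeStudio and lumi without saying what each did.

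Intensities were normalised with neqc of limma 3.58.1 in R 4.3.3 (background from the detection p-values, offset 16, quantiles, log2). Probes detected (p under 0.05) on at least 3 of 6 arrays entered lmFit and eBayes, each probe on its own, for KO against WT without a pair term, with Benjamini-Hochberg adjustment over 17920 probes and a threshold of 0.05. These fits and that of the pair letter were tested on simulated data, where the fit without a pair term missed most 2-fold changes and the block and pair-letter fits made more false calls than the threshold allows. The alternatives were background left in, an offset of 50, median scaling, the authors' deposited values, all probes or a stricter detection filter, 1 probe a gene, trend and robust settings, omission of each array, pairs A and B only and a replicate block of pair letters. The labels speak of pairs, and arrays with the same letter deviated together (correlations 0.352, 0.490 and 0.720 for A, B and C), but so did WT A with KO B (0.423) and WT B with KO A (0.254). Of 45281 probes 34885 had 1 gene symbol, 18 several and 10378 none, from the platform annotation updated through GRCm38.p6. Columns that could be tied to no sample numbered 0.

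The members and lists were chosen with earlier results of these data known. Named were every member probe, Kdm5b, the 2 largest differences of each wider list with Kdm5a, Npas2, Nfil3 and Rora, tested genes within 1 Mb of Per2 and the 5 genes most like Per2. The test of the pair letter was added after the data had been seen. With 3 arrays a genotype, precision is limited by their number.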

Additional observations from a re-analysis of the deposited data

How the results depend on the processing

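The Per2 difference was -1.28 to -0.86 (log2) when an array was omitted, which could not change its sign because the groups did not overlap. The count of probes past the threshold over the whole array, 3 in the reported fit, was 1 with background left in, 1 from the authors' values, 1 with an offset of 50, 1 without a detection filter, 0 with detection p under 0.01 on all 6 arrays, 1 to 2 when an array was omitted and 4 under the replicate block of pair letters. The replicate block left the number of clock members called at 0 and that of the wider lists at 0, and with it Cops8 passed. The members' median of -0.35 was -0.19 with background left in, -0.19 from the authors' values and -0.51 to -0.18 when an array was omitted. The number of member probes higher in KO, 2 of 13, was 0 with median scaling, 5 of 19 without a detection filter, 1 of 9 with 1 probe a gene, 1 with pairs A and B only and 1 to 3 when an array was omitted. The 3 member probes called for the pair letter were 0 with background left in, 0 from the authors' values, 0 without a detection filter, 0 with pairs A and B only, 1 with 1 probe a gene and 1 to 4 when an array was omitted (4 without WT replicate A, with Dbp). The cause was not tested for these changes, except that stricter filters and 1 probe a gene leave fewer probes. Signal close to background limits Per3, Cry1, Arntl, Cry2, Nr1d2, the second Clock probe, the third Per1 probe and the third Per2 probe, which were dim on all arrays or on most.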
